A study of Homo sapiens with 5 samples.

Results

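Molecular chaperones and the chaperonin were followed as 46 genes of 58929 in the tables: the HSP70, HSP90, HSP40 (J protein) and small heat shock families with their co-chaperones, the cytosolic chaperonin TRiC, prefoldin, and the mitochondrial chaperones. They were chosen by gene symbol alone, and each symbol matched 1 row. The list is named for cytosolic chaperones, but 5 of its genes encode mitochondrial proteins (HSPA9, TRAP1, HSPD1, HSPE1 and DNAJA3), and HSPB11 encodes a subunit of the intraflagellar transport machinery. The libraries come from A549, an established human lung adenocarcinoma line, and by the design text they hold ribosome footprints, although each library's molecule label reads total RNA. RBMS1 binds RNA. It was stably depleted with hairpin sh1088 (1 library) or hairpin sh1196 (1 library), against 1 sh control library, and stably overexpressed (R1A, 1 library), against 1 pCDH control library. All 5 were treated with cycloheximide at 100 µg/mL for 15 min before lysis. Treatment with RNase I for 5 min was also shared by all 5. Each hairpin and each control is a single library, and nothing says that the libraries came from separate cultures. The p-values therefore measure only the spread between libraries, which may be technical. In the knockdown fit that spread is the difference between sh1088 and sh1196, which are different hairpins and not repeats of the same hairpin.

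HSP70 proteins bind exposed hydrophobic stretches of unfolded chains and release them in a cycle driven by ATP, with J proteins as the partners that deliver the chain and start hydrolysis, and with BAG proteins and HSP110 proteins as nucleotide exchange factors. HSP90 takes over partly folded clients such as kinases and steroid receptors, handed on by the adaptor STIP1. TRiC is a double-ring chamber that folds actin and tubulin, and prefoldin carries such chains to it from the ribosome. HSF1 is the transcription factor that raises many of these genes when unfolded proteins accumulate.

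The libraries held between 10327747 and 13980843 expected counts. Nuclear protein-coding genes took 42.2% of them in sh1088 and 66.0% in sh1196, against 37.7% in the sh control. They took 62.3% in the overexpression library, against 66.3% in the pCDH control. By this share sh1088 lay nearer to the sh control than sh1196 did. The part of this difference in the results for each hairpin was not tested. Fragment length, taken as the median of gene length less effective length, was 42.4 nt in sh1088 and 45.3 nt in sh1196, against 44.97 nt in the sh control. It was 39.85 nt in the overexpression library, against 51.3 nt in the pCDH control. The part of fragment length in the results was not tested either. RBMS1 itself had 18.8 CPM (TMM-scaled CPM over the 5 libraries) in sh1088 and 13.8 CPM in sh1196, against 32.0 CPM in the sh control, and 37.8 CPM in the overexpression library, against 25.7 CPM in the pCDH control. In knockdown its fitted change was -0.93 on the log2 scale (SE 0.45, adjusted p = 0.827 in edgeR). All 7 markers of A549 or airway epithelium were found in every library. Of 14 fibroblast, immune and endothelial markers, only COL1A1, CD68 and LYZ reached 10 counts in any library. The summed level of the 5 immune markers, nearly all of it CD68, a lysosomal protein that other cells carry too, was 23.7 CPM in sh1088 and 58.6 CPM in sh1196, against 22.1 CPM in the sh control, and 25.2 CPM in the overexpression library, against 91.8 CPM in the pCDH control; its part in the results was not tested. In bulk libraries of this kind, fewer cells with an RNA and less RNA per cell cannot be told apart. No separate RNA library was among the 5, so for footprints RNA amount and ribosome occupancy cannot be told apart either.

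Chaperone genes took 1.16% of the counts of nuclear protein-coding genes in sh1088 (exact binomial 95% interval 1.15 to 1.17) and 1.41% in sh1196 (1.40 to 1.42), against 0.971% in the sh control (0.962 to 0.981). They took 1.45% in the overexpression library (1.45 to 1.46), against 1.07% in the pCDH control (1.06 to 1.07). On this scale both controls lay below the 3 libraries with altered RBMS1, by more than counting error, which is the only error these intervals cover. Over all expected counts the order differed: the share was 0.490% in sh1088 and 0.933% in sh1196, against 0.367% in the sh control, and 0.907% in the overexpression library, against 0.707% in the pCDH control, which then lay above sh1088. The lowest count of any chaperone gene in any library was 43 (HSPB11 in the sh control) and the highest 16031 (HSP90AA1 in sh1196), so every member passed the filters on low counts.

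**Figure D1:**
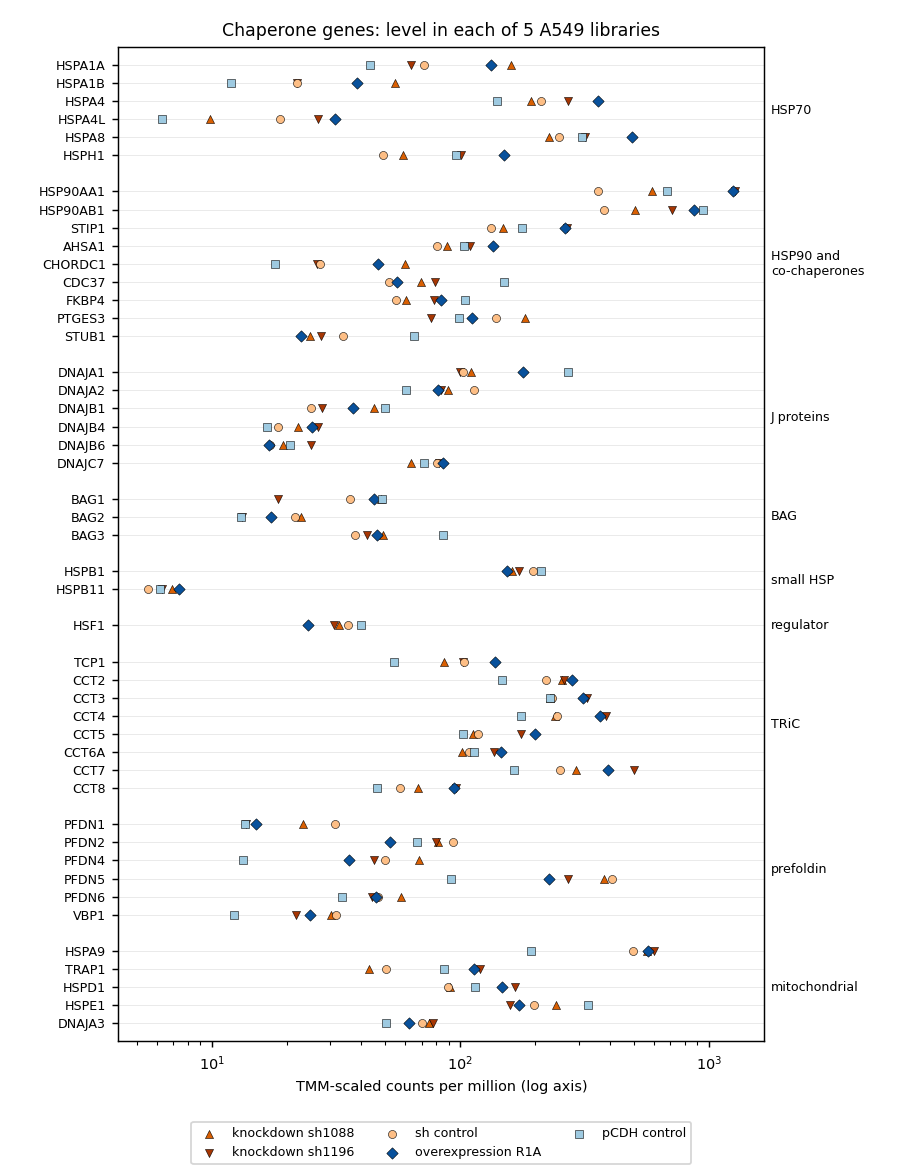
TMM-scaled CPM (log axis) of the 46 chaperone genes, grouped by family, in the knockdown libraries sh1088 and sh1196, the sh control, the overexpression library R1A and the pCDH control; each point is 1 library. The pCDH control held the lowest level for 22 of the 46 genes, among them 7 of the 8 TRiC genes and 5 of the 6 prefoldin genes. How often it was the lowest over all genes was not counted, so this may be a trait of that library and not of the chaperone genes.

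Heat shock factor binds inverted repeats of the pentamer around GAA, the heat shock element, and a strict form of it with 3 units (GAA, then any 2 bases, TTC, any 2 bases and GAA, or the same element read from the other strand, both searched) was looked for in RefSeq promoter windows (GRCh38.p14) from 250 bases before to 50 bases after each start. A window was on hand for 40 of the 46 genes (not for PFDN2, CCT6A, HSPB11, HSF1, FKBP4 and STUB1), and 7 of them held the element (17.5%), against 166 of 27305 genes of the whole table (0.608%). The 7 were HSP90AA1, HSP90AB1, HSPA8, CHORDC1, HSPD1, DNAJB6 and DNAJA1. A match is a description of letters and not a shown binding site, and a gene with no match, HSPA1A and HSPA1B included, has only no such letters in its window. The stretches around the element for 5 genes whose values are given next are shown, with the element in capitals, 5′ to 3′ on the gene's strand:
HSP90AA1: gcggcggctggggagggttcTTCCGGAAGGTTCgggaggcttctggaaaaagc
HSP90AB1: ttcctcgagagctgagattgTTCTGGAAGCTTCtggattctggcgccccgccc
HSPA8: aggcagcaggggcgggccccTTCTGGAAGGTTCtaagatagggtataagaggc
CHORDC1: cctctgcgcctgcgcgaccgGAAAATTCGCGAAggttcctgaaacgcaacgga
HSPD1: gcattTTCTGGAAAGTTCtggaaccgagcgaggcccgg
They lie at chr14:102087100-102087152 (minus strand), chr6:44247811-44247863 (plus), chr11:123062159-123062211 (minus), chr11:90223077-90223129 (minus) and chr2:197500053-197500090 (minus). All but HSP90AA1 hold further or overlapping matches in the window, of which 1 is shown. The element shown began 88 bases before the start in HSP90AA1, 112 in HSP90AB1, 55 in HSPA8, 60 in CHORDC1 and 245 in HSPD1.

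The knockdown comparison asked which of these genes carry more or fewer footprints when RBMS1 is depleted. HSP90AA1, the stress-inducible HSP90, had the largest fold change of the 46, and its constitutive paralog HSP90AB1 also lay above the sh control in both hairpins. No chaperone gene passed an edgeR adjusted p of 0.05 (0 of 46), where 0% of all 14953 genes tested passed, and 0 of 46 had an unadjusted p under 0.05, where 5.9% of all genes did. DESeq2 and limma-voom also called 0 of the 46. Fitted changes were above 0 for 33 of 46 genes, against 54.1% of all genes tested, with a median log2 fold change of 0.27, against 0.07 for all genes. Both hairpins were set against the same control library, so agreement between them is no independent check. The residual error of the fit comes from the difference between the hairpins, so the lack of calls does not show a lack of change.

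HSP90AA1 had 590 CPM in sh1088 and 1276 CPM in sh1196, against 360 CPM in the sh control. Its fitted log2 change was 1.42 (SE 0.71, adjusted p = 0.827 in edgeR, higher in 2 of 2 hairpins), and in the authors' deposited table it was 1.41 with an adjusted p of 0.00794, where HSP90AA1 was the only chaperone gene under 0.05 and 263 genes were higher and 276 lower of 15560. The DESeq2 run made here on the same counts gave HSP90AA1 a similar log2 change, 1.39, but did not call it. The reason for this difference was not tested. HSP90AB1 had 505 CPM in sh1088 and 714 CPM in sh1196, against 378 CPM in the sh control. Both knockdown libraries lay above the sh control for each HSP90 gene, with sh1196 the higher. Fitted against the pCDH control instead, the change was 0.49 for HSP90AA1 but -0.60 for HSP90AB1. By deposited TPM, a scale per gene length, HSP90AA1 stood above HSP90AB1 by a ratio of 1.5 in sh1088 and 1.86 in sh1196, against 1.27 in the sh control, and by 1.55 in the overexpression library, against 0.901 in the pCDH control, where HSP90AB1 was the higher. By counts, which are not per length, the ratio in the sh control was 0.951. Of the 31-base windows of the HSP90AA1 and HSP90AB1 transcripts, 36.1% and 40.1% occur in other genes, so both are uncertain. In all, 10 of the 46 genes had over 20% of their windows in other genes. HSPA8 (41.1%), CCT8 (23.4%), TCP1 (23.0%) and DNAJB6 (23.0%) were among them, and counting intervals do not cover this.

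The co-chaperones of HSP90 did not move as a block. CDC37, the adaptor for kinase clients, had 69.4 CPM in sh1088 and 79.0 CPM in sh1196, against 51.7 CPM in the sh control, a fitted log2 change of 0.57 (SE 0.47, adjusted p = 0.856 in edgeR). STIP1, the adaptor between HSP70 and HSP90, had 148 CPM in sh1088 and 269 CPM in sh1196, against 133 CPM in the sh control. AHSA1, which stimulates the HSP90 ATPase, and FKBP4, an immunophilin, lay between 0.18 and 0.55 on the log2 scale in each hairpin. CHORDC1, a zinc-binding co-chaperone, was high in sh1088 alone, with 60.1 CPM there and 26.4 CPM in sh1196, against 27.2 CPM in the sh control. PTGES3 (p23), which holds HSP90 in its closed state, had 183 CPM in sh1088 and 76.5 CPM in sh1196, against 139 CPM in the sh control, so that the hairpins lay on either side of the control. STUB1, the ubiquitin ligase that reads the tails of HSP70 and HSP90, stood at -0.32 (SE 0.43).

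**Figure D2:**
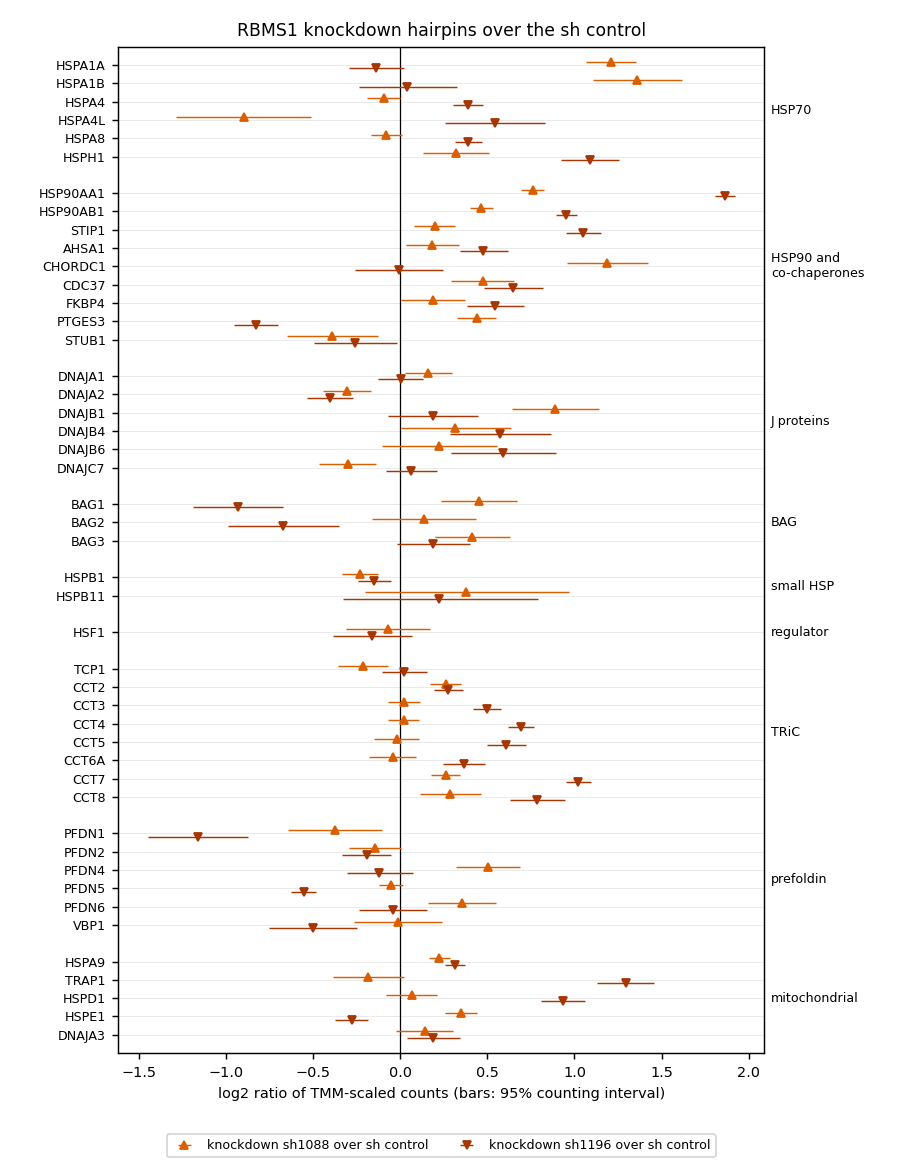
Log2 ratio of TMM-scaled counts of each knockdown hairpin over the shared sh control (x axis) for the 46 chaperone genes by family; points are single libraries and bars are 95% counting intervals. HSP90AA1 lies at 0.76 for sh1088 and at 1.86 for sh1196, while HSPA1A, HSPA1B and CHORDC1 stand above 1 in sh1088 and near 0 in sh1196.

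The hairpins differed from each other in the stress-inducible HSP70 genes, by less than in TRAP1, HSPA4L and BAG1. HSPA1A had 160 CPM in sh1088 and 63.1 CPM in sh1196, against 71.2 CPM in the sh control. HSPA1B had 54.6 CPM in sh1088 and 22.0 CPM in sh1196, against 22.0 CPM in the sh control. For both genes sh1088 stood apart from the other knockdown library and from the control. DNAJB1, the inducible J protein partner of HSP70, had 44.95 CPM in sh1088 and 27.9 CPM in sh1196, against 25.1 CPM in the sh control. At a 2-fold limit, sh1088 was higher than the sh control for 3 of the 46 genes (HSPA1A, HSPA1B and CHORDC1), where 3.91% of all genes were, and sh1196 for 5 (HSP90AA1, HSPH1, STIP1, CCT7 and TRAP1), where 11% of all genes were. The share in sh1196 is near that background. At least 2-fold lower were 0 of 46 in sh1088, where 3.26% of all genes were, and 1 of 46 in sh1196 (PFDN1), where 12.5% were.

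HSPA1A (chromosome 6, 31815464 to 31817946) and HSPA1B (chromosome 6, 31827735 to 31830255, GENCODE release 29, GRCh38) are nearly identical neighbours on the plus strand. Of the 31-base windows of the HSPA1A transcript, 74.3% also occur in HSPA1B, yet the deposited expected counts of both genes are whole numbers in all 5 libraries. The 2 genes are therefore uncertain one by one, and the ratio of HSPA1A to HSPA1B counts ran from 2.86 in sh1196 to 3.66 in the pCDH control. Summed, they had 214 CPM in sh1088 and 85.2 CPM in sh1196, against 93.2 CPM in the sh control. The log2 ratio of the sum was 1.25 in sh1088 (95% counting interval 1.12 to 1.37) and -0.09 in sh1196 (-0.23 to 0.04).

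The constitutive HSP70 and the HSP110 genes followed another order. HSPA8, the constitutive cytosolic HSP70, had 228 CPM in sh1088 and 318 CPM in sh1196, against 249 CPM in the sh control. HSPH1, an HSP110 exchange factor, had 58.8 CPM in sh1088 and 101 CPM in sh1196, against 48.7 CPM in the sh control, a fitted log2 change of 0.76 (SE 0.53, adjusted p = 0.830 in edgeR). HSPA4, also of the HSP110 group, had 192 CPM in sh1088 and 270.5 CPM in sh1196, against 212 CPM in the sh control. In all of these sh1196 was the highest of the 3, unlike for HSPA1A and HSPA1B. HSPA4L had 9.82 CPM in sh1088 and 26.8 CPM in sh1196, against 18.9 CPM in the sh control, one of the members whose hairpins fell on opposite sides of the control.

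TRiC subunits were level in sh1088 and higher in sh1196. In sh1088 5 of 8 subunits lay above 0, with a median log2 ratio of 0.02, and in sh1196 8 of 8 did, with a median of 0.55. CCT7 had 293 CPM in sh1088 and 500 CPM in sh1196, against 253 CPM in the sh control. CCT8 had 67.6 CPM in sh1088 and 96.1 CPM in sh1196, against 57.2 CPM in the sh control, with a fitted log2 change of 0.56 (SE 0.49, adjusted p = 0.856 in edgeR). TCP1, for which the complex is named, stood at -0.09 (SE 0.47). None of the 8 passed the test.

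Prefoldin lay the other way from TRiC in sh1196, where 0 of 6 subunits were above 0 (median -0.35), against 2 of 6 in sh1088 (median -0.03). PFDN1 had 23.4 CPM in sh1088 and 13.7 CPM in sh1196, against 31.4 CPM in the sh control, the lowest value of the 8 genes below 0 in both hairpins (log2 fold change -0.72, SE 0.49, adjusted p = 0.829 in edgeR). PFDN5, the most abundant subunit, had 380 CPM in sh1088 and 270.3 CPM in sh1196, against 407 CPM in the sh control. PFDN2 stood at -0.17 (SE 0.46). Fitted against the pCDH control instead, each prefoldin gene lay above 0, from 0.31 (PFDN2) to 2.11 (PFDN4). Whether TRiC and prefoldin differ was not tested.

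Other members below the control in both hairpins lay closer to it. DNAJA2, a J protein of the cytosol, had 89.1 CPM in sh1088 and 83.9 CPM in sh1196, against 114 CPM in the sh control. HSPB1, the small heat shock protein Hsp27, had 162 CPM in sh1088 and 172 CPM in sh1196, against 196 CPM in the sh control. HSF1 had 32.7 CPM in sh1088 and 30.96 CPM in sh1196, against 35.5 CPM in the sh control, a fitted log2 change of -0.11 (SE 0.44). By deposited TPM relative to all genes, DNAJA2, HSPB1, HSF1, PFDN2, STUB1 and VBP1 lay above 0 instead, between 0.0103 and 0.41. PFDN1 and PFDN5 stayed below 0 on that scale. In all, 8 of 46 genes were below 0 in both hairpins, where 35.4% of all genes with a mean CPM of at least 5 were, and 22 of 46 were above 0 in both, where 35.8% of all genes were. For DNAJB4, a J protein, the log2 ratio was 0.32 in sh1088 and, for sh1196, 0.57.

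The BAG exchange factors and the other J proteins gave no shared order. BAG1, which couples HSP70 to the proteasome, had 47.8 CPM in sh1088 and 18.5 CPM in sh1196, against 36.1 CPM in the sh control. BAG2 had 23.0 CPM in sh1088 and 13.2 CPM in sh1196, against 21.6 CPM in the sh control, and BAG3 had 48.7 CPM in sh1088 and 42.02 CPM in sh1196, against 37.8 CPM in the sh control. BAG1 and BAG2 thus lay above the control in sh1088 and below it in sh1196, while BAG3 lay above it in both. DNAJA1 had 111 CPM in sh1088 and 100.1 CPM in sh1196, against 102 CPM in the sh control. DNAJC7 had 63.4 CPM in sh1088 and 82.3 CPM in sh1196, against 80.7 CPM in the sh control. HSPB11 had 6.94 CPM in sh1088 and 6.29 CPM in sh1196, against 5.53 CPM in the sh control, with few counts behind each value. CCT2, the other abundant TRiC subunit, had 257 CPM in sh1088 and 262 CPM in sh1196, against 221 CPM in the sh control.

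Among the mitochondrial chaperones the hairpins again differed. TRAP1, the mitochondrial HSP90, had 42.9 CPM in sh1088 and 120 CPM in sh1196, against 50.4 CPM in the sh control. HSPD1, the chaperonin HSP60, had 90.5 CPM in sh1088 and 166 CPM in sh1196, against 89.3 CPM in the sh control. HSPE1, its lid HSP10, had 243 CPM in sh1088 and 159 CPM in sh1196, against 197 CPM in the sh control. HSPD1 and HSPE1 thus lay on opposite sides of the control in sh1196. HSPA9 (mortalin), the HSP70 of the matrix, had 562 CPM in sh1088 and 603 CPM in sh1196, against 497 CPM in the sh control, and it stood among the 2 most abundant members per length.

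The overexpression comparison asked the same with RBMS1 raised, with 1 library against 1 and so without a replicate check. HSP70 and TRiC genes stood higher in the overexpression library as groups, with 6 of 6 and 8 of 8 members above 0, while CDC37 and STUB1 were the 2 members at least 2-fold lower. Of the 46 genes, 33 had a log2 ratio above 0, where 51.3% of all 10844 genes with a mean CPM of at least 5 did, and the median was 0.42, against 0.03 for all genes. At least 2-fold higher were 13 of 46, where 14.1% of all genes were, and at least 2-fold lower were 2 of 46, where 14.6% of all genes were. Taken over the sh control instead, a setting chosen after seeing the data, these counts were 4 and 1 of 46, where 8.65% and 10.7% of all genes were, and the median stayed at 0.42.

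HSPA1A had 132 CPM in the overexpression library, against 43.5 CPM in the pCDH control, a log2 ratio of 1.61 (95% counting interval 1.48 to 1.74). HSPA1B had 38.5 CPM in the overexpression library, against 11.9 CPM in the pCDH control, and the sum of both genes gave a log2 ratio of 1.63 (1.51 to 1.74). HSPA4L had the largest ratio of the 46, with 31.5 CPM in the overexpression library, against 6.31 CPM in the pCDH control (2.32, interval 2.003 to 2.64). HSPA4 had 357 CPM in the overexpression library, against 141 CPM in the pCDH control (1.34, 1.27 to 1.41). HSPA8 stood at 0.68 (0.62 to 0.73) and HSPH1 at 0.64 (0.55 to 0.74). The median of the HSP70 group was 1.47 against the pCDH control and 0.85 against the sh control, with 6 of 6 members above 0 under each.

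TRiC had a median log2 ratio of 0.99, with 4 of 8 subunits at least 2-fold higher. TCP1 had 138 CPM in the overexpression library, against 54.0 CPM in the pCDH control (1.36, 1.24 to 1.47). CCT7 had 395 CPM in the overexpression library, against 165 CPM in the pCDH control (1.26, 1.19 to 1.33), and CCT6A, with the smallest ratio of the 8, stood at 0.36 (0.26 to 0.45). Against the sh control the TRiC median was 0.50, with 8 of 8 above 0. Of all 46 genes, 25 were above 0 both in the overexpression ratio and in the knockdown fit, which share no library, where 26.1% of all genes were. In each comparison alone 33 of the 46 were above 0. Many would thus be above 0 in both with no link between the comparisons, and the count does not show agreement.

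Prefoldin depended on which control was used. PFDN5 had 228 CPM in the overexpression library, against 91.7 CPM in the pCDH control (1.31, 1.22 to 1.41), but 407 CPM in the sh control. PFDN4 had 35.6 CPM in the overexpression library, against 13.4 CPM in the pCDH control, and 50.0 CPM in the sh control. The prefoldin median was 0.73 with 5 of 6 above 0 against the pCDH control, and -0.66 with 0 of 6 above 0 against the sh control. The mitochondrial HSPA9 had 571 CPM in the overexpression library, against 193 CPM in the pCDH control (1.57, 1.504 to 1.63), while the sh control lay at 497 CPM.

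**Figure D3:**
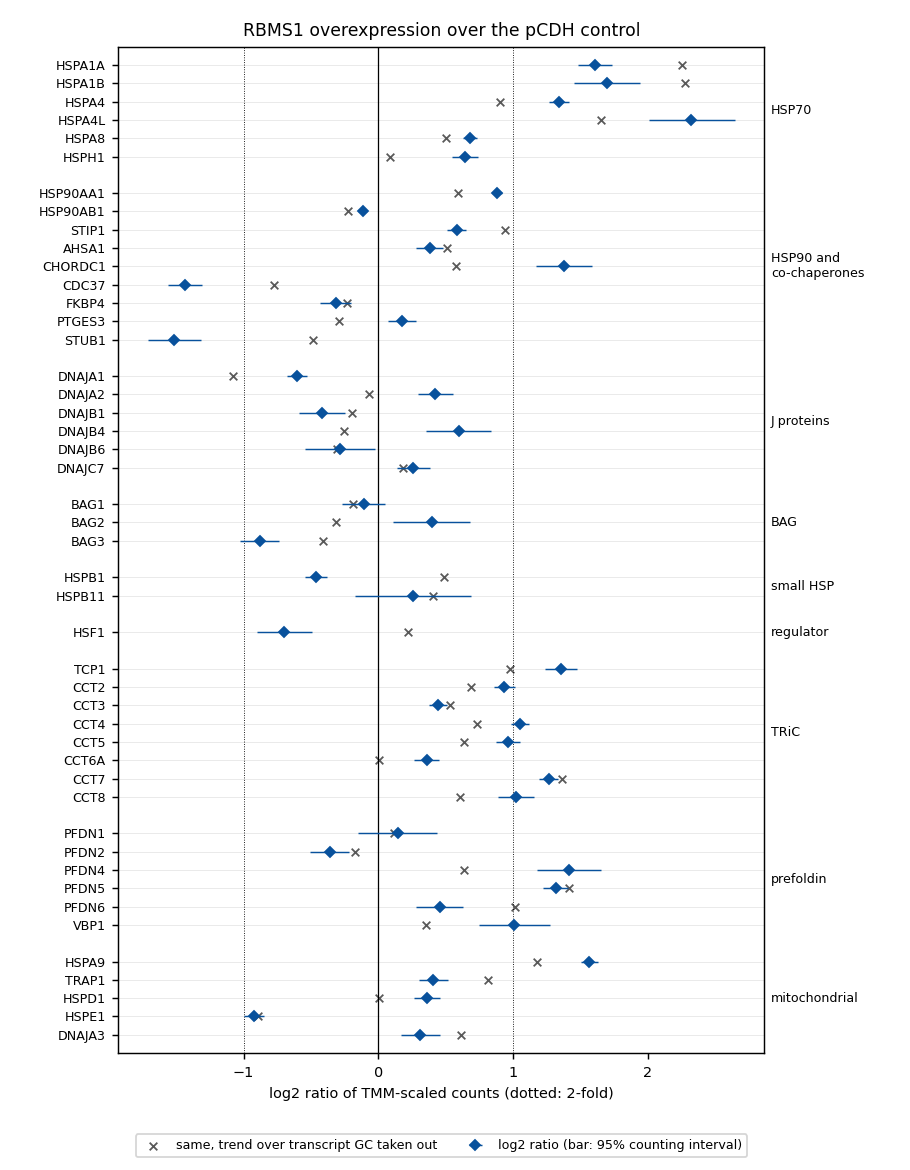
Log2 ratio of TMM-scaled counts of the overexpression library over the pCDH control (x axis, diamonds with 95% counting intervals, 1 library against 1) for the 46 chaperone genes, and the same with the trend over transcript GC content taken out (crosses). All 6 HSP70 genes and all 8 TRiC genes lie above 0, and CDC37 at -1.43 and STUB1 at -1.51 lie lowest.

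The genes that lay lower were mostly co-chaperones. STUB1 had 22.9 CPM in the overexpression library, against 65.3 CPM in the pCDH control (-1.51, -1.71 to -1.32). CDC37 had 55.7 CPM in the overexpression library, against 150 CPM in the pCDH control (-1.43, -1.56 to -1.31). HSPE1 had 172 CPM in the overexpression library, against 327 CPM in the pCDH control (-0.92, -0.997 to -0.85), while its partner HSPD1 stood at 0.36 (0.26 to 0.45). BAG3, an exchange factor that links HSP70 to autophagy, had 46.1 CPM in the overexpression library, against 84.9 CPM in the pCDH control (-0.88, -1.03 to -0.74). DNAJA1, a J protein of the cytosol, had 179 CPM in the overexpression library, against 273 CPM in the pCDH control (-0.60, -0.68 to -0.53). HSF1 had 24.5 CPM in the overexpression library, against 39.8 CPM in the pCDH control (-0.70, -0.90 to -0.50). HSF1, STUB1 and HSPE1 lay below the sh control too, whereas CDC37, BAG3 and DNAJA1 lay above it. HSP90AA1 stood at 0.88 (0.84 to 0.91) and HSP90AB1 at -0.12 (-0.15 to -0.08). Against the sh control both HSP90 genes lay higher in the overexpression library, at 1.80 and 1.21, so the sign for HSP90AB1 depends on the control.

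The overexpression ratio fell with the GC content of the transcript, with Spearman rho -0.57 across 10340 nuclear protein-coding genes and -0.44 across the 46 chaperone genes, where genes are not independent replicates. STUB1 (65.8% GC), HSPB1 (64.5%) and HSF1 (63.9%) have the highest GC content of the list. With the trend taken out, HSF1 stood at 0.22, STUB1 at -0.48 and CDC37 at -0.77, and 7 of 46 genes lay 2-fold or more above the control and 1, DNAJA1 at -1.08, as far below; CDC37 and STUB1 were then within 2-fold. HSPA1A, at 59.7% GC, stood at 2.25, and the medians of the HSP70 group and of TRiC were 1.28 and 0.66. In the authors' deposited table, 32 of the 46 log2 changes were above 0, with a median of 0.27, against 0.02 for the 17714 genes with an adjusted p. Single genes differed from the ratios given here by unlike amounts. HSPA1A stood at 1.09 there, against 1.61 here, HSP90AA1 at 0.39, against 0.88, and HSPA9 at 1.64, against 1.57. Another library scaling would shift all genes alike, so those changes are not a plain ratio of the overexpression library over the pCDH control. How they were obtained is not stated, and the cause of the difference was not tested.

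A joint fit related each gene to the amount of RBMS1, coded -1 in knockdown, 0 in either control and 1 in overexpression, over all 5 libraries with a term for the vector system. No chaperone gene passed (0 of 46 by edgeR, where 0% of 14559 genes passed, and 0 of 46 by DESeq2), and 1 of 46 had an unadjusted p under 0.05, where 6.62% of all genes did. That gene was CDC37, which had 69.4 CPM in sh1088, 79.0 CPM in sh1196, 51.7 CPM in the sh control, 150 CPM in the pCDH control and 55.7 CPM in the overexpression library. Its log2 change per level was -0.90 (SE 0.40, adjusted p = 0.718 in edgeR). BAG3 stood at -0.53 (SE 0.37) and DNAJB1 at -0.48 (SE 0.39) per level. PFDN5 stood at 0.76 (SE 0.44), TCP1 at 0.67 (SE 0.44) and HSPA4L at 1.06 (SE 0.69). HSPA1A and HSPA1B, high in both sh1088 and the overexpression library, stood at 0.37 (SE 0.68) and 0.33 (SE 0.73). Values were above 0 for 27 of 46 genes, where 52% of all genes were, and the median was 0.07 per level, against 0.03 for all genes tested. Without the pCDH control or without the overexpression library that median was -0.27, and the values of HSPA1A and HSPA1B were below 0.

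Levels between genes were compared by TPM, a scale per gene length, rescaled to the nuclear protein-coding genes, as the mean of the 5 libraries. The most abundant members were PFDN5 at 1096 TPM, HSPA9 at 1076 TPM, HSPE1 at 827 TPM, CCT7 at 815 TPM and HSP90AA1 at 741 TPM. The least abundant were BAG2, an inhibitor of STUB1, at 5.15 TPM, HSPA4L at 12.4 TPM and HSPB11 at 14.7 TPM. In the HSP70 group HSPA8 led at 486 TPM and HSPA4 followed at 184 TPM. Among J proteins DNAJC7, which also binds HSP90, stood at 168 TPM and DNAJA1 at 132 TPM, and among BAG proteins BAG1 stood at 80.9 TPM. HSPB1 stood at 444 TPM and HSF1 at 42.2 TPM. Across the 5 libraries the highest CPM of a member was 1.34 to 5.12 times its lowest (median 2.17), with HSPB11 the steadiest and PFDN4 the widest.

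Subunits of TRiC are present in the complex in equal number, and their TPM were set against the median of the complex in the same library, where library scaling cancels. CCT4 and CCT5 were the middle subunits in each of the 5 libraries, so the median is their mean and their closeness to it is fixed by that choice. CCT7 stood highest at 2.84 ± 1.08 (SD over the 5 libraries) and CCT2 at 2.48 ± 0.91, while CCT8 stood lowest at 0.447 ± 0.088. The coefficient of variation over the 8 subunits was 80.2% in sh1088 and 75.7% in sh1196, against 71.6% in the sh control, and 53.4% in the overexpression library, against 62.1% in the pCDH control. CCT7 and CCT2 also had the most uneven gene lengths from RSEM, which weights transcripts separately in each library: CCT7 was given 618 bases in sh1088 and 778 in sh1196, against 676 in the sh control, and 1004 in the overexpression library, against 1509 in the pCDH control. The part of these lengths in the ratios was not tested.

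Prefoldin was less even than TRiC in each of the 5 libraries by this measure. PFDN5 stood at 7.53 ± 3.52 times the median of the complex and VBP1 at 0.325 ± 0.040, and the coefficient of variation ran from 90.4% in the pCDH control to 163% in the sh control. For the mitochondrial chaperonin, HSPE1 exceeded HSPD1 by a TPM ratio of 6.16 in sh1088 and 2.74 in sh1196, against 6.05 in the sh control, and of 3.55 in the overexpression library, against 8.88 in the pCDH control. HSPE1 overlaps the readthrough gene HSPE1-MOB4 on the same strand and is 1 of 3 members with fractional counts, with HSPA8 and BAG1, so its counts may be split with that gene. Of the HSPD1 transcript's 31-base windows, 46.5% occur in other genes, mostly pseudogenes. The ratio of the pair is uncertain for both reasons.

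**Figure D4:**
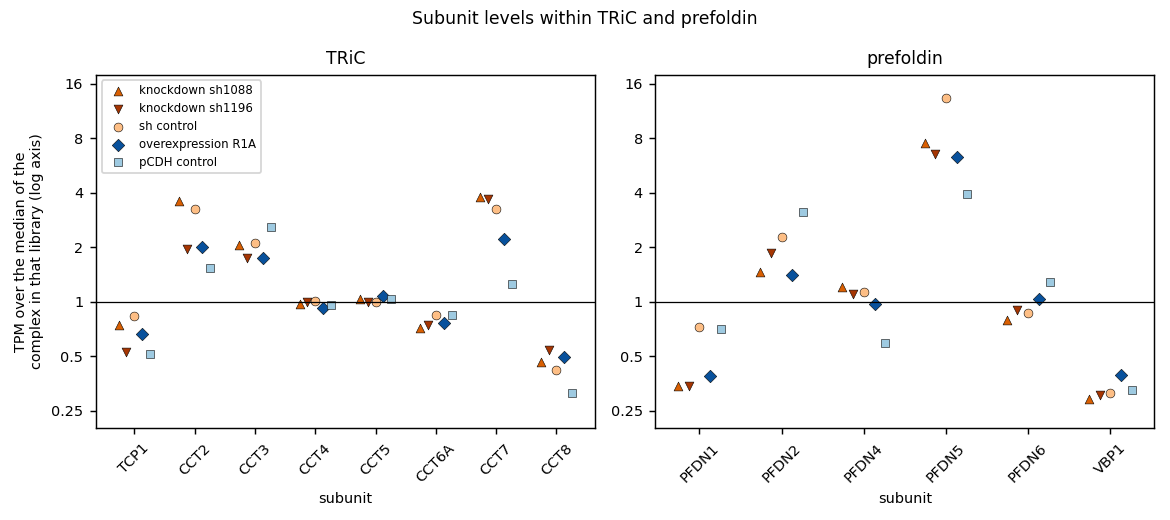
TPM of each subunit over the median of its complex in the same library (log axis) for TRiC (left) and prefoldin (right); each point is 1 of the 5 libraries. CCT4 and CCT5 are the middle subunits that set the TRiC median in every library, with CCT8 below it; in prefoldin, VBP1 lies below that complex's median and PFDN5 at 3.94 to 13.4 times it.

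The 7 genes with a heat shock element in the promoter window were set beside the 33 with a window and none. HSPE1 counts among the 33, although the element shown for HSPD1 lies within the span of HSPE1 (chromosome 2, 197499994 to 197503457). Its place in that group thus depends on the limits of the window. In sh1088 6 of the 7 lay above 0 (median 0.22), against 22 of 33 (0.20). In sh1196 6 of the 7 did (0.59), against 21 of 33 (0.19), and in overexpression 4 of the 7 did (0.36), against 27 of 33 (0.58). Per RBMS1 level 2 of the 7 lay above 0 (-0.28), against 24 of 33 (0.20). HSP90AA1 and CHORDC1, both with the element, had their peaks in different hairpins, at 1.86 in sh1196 and 1.19 in sh1088. The sets were not tested against each other.

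Chaperone-related genes outside the list had no call in knockdown. Of 34 other cytosolic chaperones and co-chaperones, 0 passed the knockdown test, 19 were above 0, where 54.1% of all genes were, and the median log2 fold change was 0.00. HSPB8, a small heat shock protein, stood at -1.04 (SE 0.63), HSBP1, which binds HSF1, at -0.77 (SE 0.50) and DNAJB12, a membrane J protein, at 0.71 (SE 0.47). In overexpression 3 of 31 measured genes of that list lay 2-fold or more above the control and 3 as far below, where 14.1% and 14.6% of all genes were. Of 10 genes of the R2TP and TTT complexes, which work with HSP90 on large kinases, 8 were above 0 in knockdown, against the same 54.1%, with a median of 0.47 against 0.07 for all genes, and 0 passed, with TELO2 at 1.12 (SE 0.64), TTI2 at 0.85 (SE 0.55) and TTI1 at 0.69 (SE 0.56).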

How the data were processed

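Per the file headers, the authors deposited an RSEM table for each library with an expected count, TPM and FPKM for every gene. Their 2 deposited comparison tables add an average signal, log2 fold changes with errors, and p-values. FPKM values were not used. RSEM 1.3.1, STAR 2.4.2, Bowtie and DESeq2 are listed in the submitters' processing notes without their roles, and neither the build nor the annotation is stated there. Of 58929 gene identifiers, 58656 matched GENCODE release 29 (GRCh38) without their version number and 47515 with it, and strands, overlaps, GC content and coordinates come from that release.

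Expected counts were rounded. Groups come from the genotype labels. Both hairpins were tested against their control library with edgeR 4.0.16 (R 4.3.3; quasi-likelihood test, TMM scaling, filterByExpr, Benjamini-Hochberg adjustment over all genes, threshold 0.05) with 1 residual degree of freedom, the lone control being assumed to vary like the knockdown libraries; the joint fit has 2. SE is the fold change over the root of F. Overexpression is given as log2 ratios with exact conditional 95% counting intervals; PCR copies are not independent molecules, so intervals cover counting error only. Ratios over all genes add 0.5 counts. DESeq2 1.42.0 and limma-voom (limma 3.58.1) were alternatives, and the GC trend was a lowess fit (fraction 0.3). Fits were tested on simulated data. Genes given in full are the 2 most abundant per family, the 6 in each direction by the smaller hairpin change or by the interval bound nearest 0, the 3 in each direction by level p, HSF1, HSPA1A and HSPA1B, and others that show how a family varied, named after their values were seen. Members and lists were chosen with earlier results of these data known. Protein sequences were not used here.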

Additional observations from a re-analysis of the deposited data

How the results depend on the processing

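No chaperone gene passed an adjusted p of 0.05 in the knockdown or level fit under any alternative run. Over all genes the knockdown calls were 0, against 28 by library size, 102 with no filter, 6 at a mean CPM of at least 5, 14 by DESeq2, 0 by limma-voom and 70 with the pCDH control. The level calls were 0, against 55 by DESeq2 and 0 to 40 with single libraries left out. The knockdown median kept its sign with DESeq2 size factors, library size, other filters, DESeq2, limma-voom, TPM, either hairpin alone (0.18 to 0.21) and the pCDH control (0.37). Single members did not all do so. Against the pCDH control HSP90AA1 (0.49), DNAJB4 (0.59) and CCT8 (0.85) stayed above 0, while HSP90AB1 (-0.60), CDC37 (-0.98) and HSPH1 (-0.24) turned below it. PFDN1 (0.47), PFDN2 (0.31) and DNAJA2 (0.55) turned above 0, while STUB1 (-1.29), HSPB1 (-0.31) and HSF1 (-0.29) stayed below it. Library size and TPM moved the median of all knockdown genes to 0.61 and 0.78, and TPM moved that of overexpression to -0.71; values under them are relative to these. With no filter on low counts the median of all knockdown genes was 0.23, against 0.29 for the members. By TPM the knockdown values of DNAJA2 (0.0103), HSF1 (0.37), HSPB1 (0.25), PFDN2 (0.15) and STUB1 (0.32) turned above 0. So did those of VBP1 (0.41), PTGES3 (0.38), TCP1 (0.30), BAG1 (0.18) and DNAJC7 (0.07), while PFDN1, PFDN5 and BAG2 stayed below 0. The cause was not tested. HSPA1A ran from -0.14 to 1.21 over the hairpins taken alone, and HSPA1B in sh1196 (0.04) turned to -0.0936 when summed with HSPA1A. Members at least 2-fold higher in overexpression were 13, against 7 with the GC trend taken out and 4 with the sh control as control, and those lower 2, against 1 and 1. Leaving out single libraries, the level median ran from -0.27 to 0.44, HSF1 from -0.68 to 0.12, HSPA1A from -0.69 to 1.63, HSPA1B from -0.85 to 1.72 and HSPA4L from -0.0045 to 2.34. The level median was -0.27 both without the pCDH control and without the overexpression library, where by construction the level rests on knockdown alone. Over all expected counts the chaperone share was 0.490% in sh1088 and 0.933% in sh1196, against 0.367% in the sh control, and 0.907% in overexpression, against 0.707% in the pCDH control. No paired analysis was possible because the groups compared share fewer than 2 replicate numbers.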

Other observations

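Clients of TRiC and the cofactors that fold tubulin were split in knockdown, with 7 of 16 measured rows above 0 and 0 past the test. TUBB4B, a beta tubulin, had 117 CPM in sh1088 and 244 CPM in sh1196, against 93.7 CPM in the sh control (log2 fold change 0.99, SE 0.61, adjusted p = 0.827 in edgeR). TBCD, a tubulin cofactor, stood at 0.84 (SE 0.53). The symbol TBCE, another cofactor, stands on 2 rows, which lay on opposite sides of the control. Its lower row in knockdown had 7.15 CPM in sh1088 and 8.67 CPM in sh1196, against 14.3 CPM in the sh control, and 8.86 CPM in the overexpression library, against 38.6 CPM in the pCDH control (log2 ratio -2.12, 95% counting interval -2.44 to -1.82). The other had 21.5 CPM in sh1088 and 27.5 CPM in sh1196, against 18.5 CPM in the sh control, and 32.2 CPM in the overexpression library, against 14.2 CPM in the pCDH control.

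Of 14 further mitochondrial proteostasis genes, 0 passed in knockdown and 8 were above 0. GRPEL2, an exchange factor for HSPA9, had 14.8 CPM in sh1088 and 14.6 CPM in sh1196, against 34.8 CPM in the sh control (-1.20, SE 0.43, adjusted p = 0.827 in edgeR). SPG7, a subunit of an inner membrane protease, stood at 1.35 (SE 0.57), and CLPP, a matrix protease, at -0.79 (SE 0.43).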
